A study of Mus musculus with 9 samples.

Results

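The genes described here handle heme and iron in RAW 264.7 cells, a mouse macrophage line raised from an ascites tumour. They were taken by name from the deposited table of gene levels, and 10 genes of 54532 met the rule: Hmox1, Blvra, Blvrb, Slc48a1, Slc40a1, Slc11a1, Slc11a2, Fth1, Ftl1 and Tfrc. Messenger RNA was sequenced from 9 libraries in 3 groups of 3, all of wild-type genotype. The control group had no treatment. The LPS group was given 1 µg/ml of lipopolysaccharide, the Gram-negative cell wall component sensed by Toll-like receptor 4. The LPS + H-CDs group was given this dose of LPS together with 400 µg/ml of H-CDs, and 6 h is stated as the exposure. H-CDs is the submitters' name, not spelled out in the labels, and the series title concerns a fruit-derived nanozyme with superoxide dismutase activity. No library with H-CDs but without LPS was analysed here, so the agent by itself was not measured. Whether the libraries of a group stem from different cultures is not stated. Every p-value rests on the scatter of libraries within groups, taken over the groups in the fit, and that scatter may be technical.

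Heme is a ring of porphyrin that holds an iron atom. Macrophages take heme from engulfed red cells, open the ring with heme oxygenase, and are left with carbon monoxide, biliverdin and free iron. The iron is stored in ferritin, a shell of heavy (Fth1) and light (Ftl1) chains, or leaves the cell through ferroportin (Slc40a1), the known iron exporter of animal cells. Iron enters by the transferrin receptor (Tfrc) and crosses membranes by the divalent metal transporters Slc11a1 and Slc11a2. As background, transcription of Hmox1 and the ferritin genes is known to be held down by BACH1 and driven by NRF2, while LPS is known to lower ferroportin RNA in macrophages.

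A second layer of control acts on the RNA itself. Iron-regulatory proteins bind a hairpin called the iron-responsive element when iron is scarce. Bound in the 5′ untranslated region (5′ UTR) it blocks translation, and bound in the 3′ UTR of Tfrc it protects the RNA. These hairpins are shown because their place bears on what an RNA level can report. With a match only in the 5′ UTR, the RNA level would not report this control, and with a match in the 3′ UTR it could. Members without a match are not sorted by the search. The search took a C bulge, 5 bases, the loop CAGTGN and 5 bases that pair with the first 5 (G with T allowed), on the sense strand of GENCODE M21 protein-coding transcripts of build GRCm38. It matched in 4 of the 10 members, counting both regions. By region, 0.136% of the protein-coding genes with a 5′ UTR and 0.607% of those with a 3′ UTR had a match. The pattern follows the known form of the element, so matches in genes known to carry it are no independent result. Sequences run 5′ to 3′ in DNA letters, and capitals mark the C bulge and the loop.

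Fth1 5′ UTR, chr19:9982733-9982759, plus strand: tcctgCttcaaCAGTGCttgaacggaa
Ftl1 5′ UTR, chr7:45459780-45459806, minus strand: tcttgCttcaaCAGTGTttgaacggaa
Slc40a1 5′ UTR, chr1:45925466-45925492, minus strand: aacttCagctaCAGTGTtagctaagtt
Tfrc 3′ UTR, site 1, chr16:32631220-32631246, plus strand: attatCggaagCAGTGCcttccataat
Tfrc 3′ UTR, site 2, chr16:32631599-32631625, plus strand: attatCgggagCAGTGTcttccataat
Tfrc 3′ UTR, site 3, chr16:32631664-32631690, plus strand: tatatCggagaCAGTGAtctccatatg
Tfrc 3′ UTR, site 4, chr16:32631711-32631737, plus strand: attatCgggaaCAGTGTttcccataat

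Fth1, Ftl1 and Slc40a1 each held 1 match in the 5′ UTR, and Tfrc held 4 in the 3′ UTR. An isoform of Slc11a2 is known to carry a 3′ element with an imperfect stem, which the strict pairing asked for here did not match. A match describes letters in a transcript and is no measure of binding.

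Between 14377161 and 16069968 reads per library lay behind the levels, and the 10 genes together took 0.494 to 0.564% of the reads in control, 0.600 to 0.606% with LPS and 1.53 to 1.60% once H-CDs were added. Levels are FPKM, reads scaled by gene length and by a factor per library, so genes may be compared within a library. How that factor was set is not given, and it was not the total of these reads. Scaling to total reads moved the median log2 difference of all tested genes for LPS against control from 0.03 to -0.22. Of 10 macrophage markers, 9 were at or above 1 FPKM in every library, Mertk being the exception. Their summed level was 2818 to 3139 FPKM in control, 3731 to 4108 with LPS and 2981 to 3117 once H-CDs were added. The markers did not move alike: the means of control, LPS and LPS + H-CDs were 401, 2226 and 1926 FPKM for Cd14, 455, 195 and 227 for Csf1r, 1624, 897 and 495 for Lyz2, and 39.99, 34.8 and 20.1 for Fcgr1. Their part in the results was not tested. No marker of T, B, erythroid, fibroblast, epithelial or liver cells exceeded 0.370 FPKM, and the globin genes Hba-a1 and Hbb-bs were at 0 throughout. LPS + H-CDs replicate 1 stood apart in its mitochondrial messenger RNA, 0.490% of reads against 1.62 and 1.64% in the other 2 of its group, and in Cd68, 133 FPKM against 274 and 296. Without that library the members' calls were the same in number, 7 higher and 0 lower against LPS.

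Adding H-CDs to LPS raised 7 of the 10 genes and lowered 0. Over all 11707 genes tested, 6.54% were higher and 9.05% lower in that comparison. In bulk libraries, fewer cells with a transcript and less of it per cell cannot be told apart. By the role assigned to each, the genes that rose belong to heme breakdown (Hmox1, Blvrb), heme and metal transport (Slc48a1, Slc40a1, Slc11a1) and iron storage (Fth1, Ftl1). Blvra, Slc11a2 and Tfrc did not pass the threshold, an adjusted p under 0.05 in a limma fit on log2(FPKM + 1) over all tested genes. The median difference of the members was 1.48 on that log2 scale, beside -0.01 for all tested genes. The members were chosen with earlier results of these data known, so their counts and medians are descriptions and no test of the set. LPS against control gave another pattern, with 6 members higher, 1 lower (Slc48a1) and 3 not called, where 28.8% of all tested genes were higher and 26.8% lower. The median there was 0.24 for the members and 0.03 for all genes. Set against control, LPS + H-CDs had 9 members higher and 0 lower, where 26.7% of all genes were higher and 25.4% lower, with medians of 1.59 and 0.01. The comparisons share libraries, since each group enters 2 of the 3. Slc40a1 reached the minimum level for testing only through LPS + H-CDs, so it had to differ and adds nothing to these counts or medians as evidence. The members' split for LPS against control moved with scaling, from 6 higher and 1 lower to 3 and 4 on a TPM scale and to 3 and 3 per total reads. All genes moved likewise, from 3372 higher and 3136 lower to 1676 and 5657 on the TPM scale. On recovered reads the members' split for LPS against control was 5 higher and 3 lower in edgeR, and 6 and 3 in DESeq2.

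**Figure D1:**
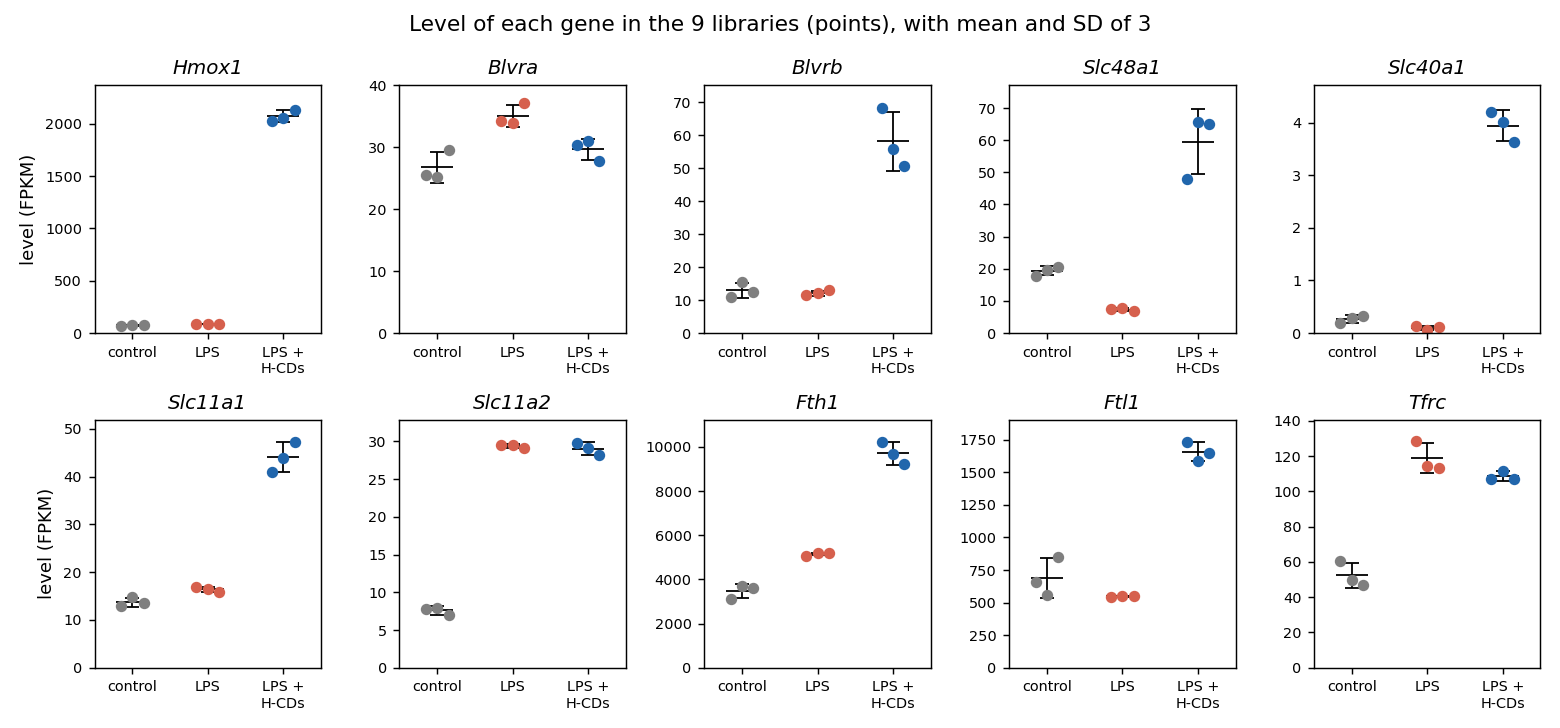
Level in FPKM (vertical axis, linear from 0, a separate scale per gene) of the 10 genes in control, LPS and LPS + H-CDs. Points are single libraries, bars the mean and SD of 3; Hmox1 reaches 2029 to 2135 FPKM in LPS + H-CDs, while Slc11a2 and Tfrc are raised in both groups that received LPS.

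Heme breakdown was led by Hmox1 (ENSMUSG00000005413, chromosome 8, 75093621 to 75100589, plus strand), the inducible heme oxygenase that opens the heme ring. Its level was 67.0, 78.0 and 76.0 FPKM in the control libraries, 86.6, 89.1 and 82.6 in LPS, and 2029, 2057 and 2135 in LPS + H-CDs. The LPS + H-CDs libraries stood apart from all others, and no LPS library overlapped control. The mean with H-CDs was 24.1 times that with LPS alone, a log2 difference of 4.57 ± 0.07 (SE, n = 3 per group, adjusted p = 2.51e-09, limma). Against control it was 28.2-fold higher (adjusted p = 9.40e-11). Among 22046 protein-coding genes ordered by mean FPKM, Hmox1 moved from place 543 in control and 524 in LPS to place 10 in LPS + H-CDs. LPS alone gave 1.17 times the control level (log2 difference 0.23 ± 0.07, adjusted p = 0.0247). That small difference did not keep its direction on other scales: it was -0.12 on the TPM scale and -0.06 per total reads. It also lost the call without control replicate 1 (adjusted p = 0.0721), LPS replicate 1 (0.0718) or LPS replicate 2 (0.0969), and in edgeR (0.0633) or with no filter (0.0531).

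The genes named as biliverdin reductases differed from each other. Blvrb, the reductase that also acts on flavins, was measured at 10.9, 15.4 and 12.6 FPKM in control, 11.4, 11.99 and 12.9 in LPS, and 68.1, 55.6 and 50.7 in LPS + H-CDs. Control and LPS overlapped, and the LPS + H-CDs libraries lay above both. With H-CDs the mean was 4.80 times that of LPS (log2 difference 2.16 ± 0.13, adjusted p = 1.57e-05), and 4.49 times that of control (adjusted p = 1.35e-06). LPS against control gave -0.08 ± 0.13 (adjusted p = 0.649), with a 95% interval from -0.38 to 0.22; on the TPM scale and per total reads Blvrb was called lower there (adjusted p = 0.0163 and 0.0432).

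Blvra, the main adult form of the reductase, had 25.4, 25.2 and 29.5 FPKM in control, 34.2, 33.9 and 37.1 in LPS, and 30.3, 30.9 and 27.7 in LPS + H-CDs. LPS lay above the other groups with no overlap. LPS gave 1.31 times the control mean (log2 difference 0.38 ± 0.08, adjusted p = 0.00240). That call ended on the TPM scale (0.05, adjusted p = 0.571) and per total reads (0.10, adjusted p = 0.284). H-CDs against LPS gave -0.24 ± 0.08 with an interval from -0.41 to -0.06, which did not pass after adjustment (adjusted p = 0.0739) and did so without control replicate 3 (0.0459). Against control, LPS + H-CDs gave 0.15 ± 0.08 (adjusted p = 0.147), and 0.218 without control replicate 3, where it was called (0.0377).

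Heme import showed a fall and a rise. Slc48a1 encodes HRG1, the transporter that brings heme from the phagolysosome into the macrophage cytosol. Its level was 17.9, 19.6 and 20.6 FPKM in control, 7.52, 7.68 and 6.75 in LPS, and 47.8, 65.8 and 64.9 in LPS + H-CDs. The groups did not overlap, LPS being lowest and LPS + H-CDs highest. LPS lowered the mean to 0.378 of control (log2 difference -1.29 ± 0.12, adjusted p = 1.50e-05). H-CDs raised it 8.13-fold over LPS (2.85 ± 0.12, adjusted p = 1.46e-06) and 3.07-fold over control (1.56 ± 0.12, adjusted p = 4.81e-06). LPS + H-CDs replicate 1 was the lowest of its group, and without it the difference from LPS was 2.998. Slc48a1 overlaps Hdac7 on the opposite strand, and Hdac7 was listed at no more than 0.0903 FPKM and 11 reads in any library.

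Iron export rests on Slc40a1, ferroportin (chromosome 1, 45908068 to 45926523, minus strand). It was at 0.186, 0.284 and 0.322 FPKM in control, 0.125, 0.0491 and 0.111 in LPS, and 4.21, 4.001 and 3.62 in LPS + H-CDs. LPS libraries held 6 to 15 reads, control libraries 28 to 51 and LPS + H-CDs libraries 472 to 568. The groups did not overlap, and ferroportin was the lowest of the 10 genes in each of them. H-CDs gave 41.5 times the mean level of LPS and 14.9 times that of control. On the log2(FPKM + 1) scale, which understates changes near 0, the differences were 2.17 ± 0.11 (adjusted p = 4.03e-06) and 1.97 ± 0.11 (adjusted p = 4.11e-07). Since the gene entered this test only through its level with H-CDs, those p-values carry little weight by themselves; the fit with no filter gave adjusted p of 1.57e-05 and 1.91e-06, and edgeR on recovered reads gave log2 differences of 5.39 and 3.88. The mean in LPS was 0.360 of control, which was not called (-0.21 ± 0.11, adjusted p = 0.128). On recovered reads the fall was called, -1.51 in edgeR (adjusted p = 3.54e-04) and -1.49 in DESeq2 (adjusted p = 4.15e-06), as it was with a pseudocount of 0.1 (adjusted p = 0.0417) and on the TPM scale (0.0231).

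The divalent metal transporters gave different patterns. Slc11a1, known as NRAMP1, moves metal ions out of the phagosome of macrophages, and the mouse strain behind RAW 264.7 is known to carry an allele whose protein does not function. It was measured at 12.8, 14.8 and 13.5 FPKM in control, 16.9, 16.5 and 15.9 in LPS, and 41.0, 43.9 and 47.2 in LPS + H-CDs. LPS lay slightly above control, and LPS + H-CDs far above both. H-CDs gave 2.68 times the LPS level (log2 difference 1.37 ± 0.07, adjusted p = 6.01e-06) and 3.21 times the control level (adjusted p = 1.15e-07). LPS against control was 0.25 ± 0.07 (adjusted p = 0.0167), but -0.08 on the TPM scale and -0.03 per total reads. Its adjusted p was 0.0578, 0.0582 and 0.0504 without control replicate 1, LPS replicate 1 and LPS replicate 2.

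Slc11a2, known as DMT1, carries iron out of the endosome after uptake by transferrin. Its level was 7.85, 7.97 and 6.98 FPKM in control, 29.5, 29.5 and 29.1 in LPS, and 29.8, 29.2 and 28.2 in LPS + H-CDs. LPS raised it to 3.86 times control (log2 difference 1.82 ± 0.06, adjusted p = 1.21e-08), and the LPS and LPS + H-CDs libraries overlapped. H-CDs against LPS gave -0.02 ± 0.06 (adjusted p = 0.898), with an interval from -0.15 to 0.12, and its sign changed with scaling. The level with H-CDs was 3.82 times control (adjusted p = 1.67e-08). Gm5475, which overlaps Slc11a2 on the opposite strand, had at most 8 reads in a library.

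**Figure D2:**
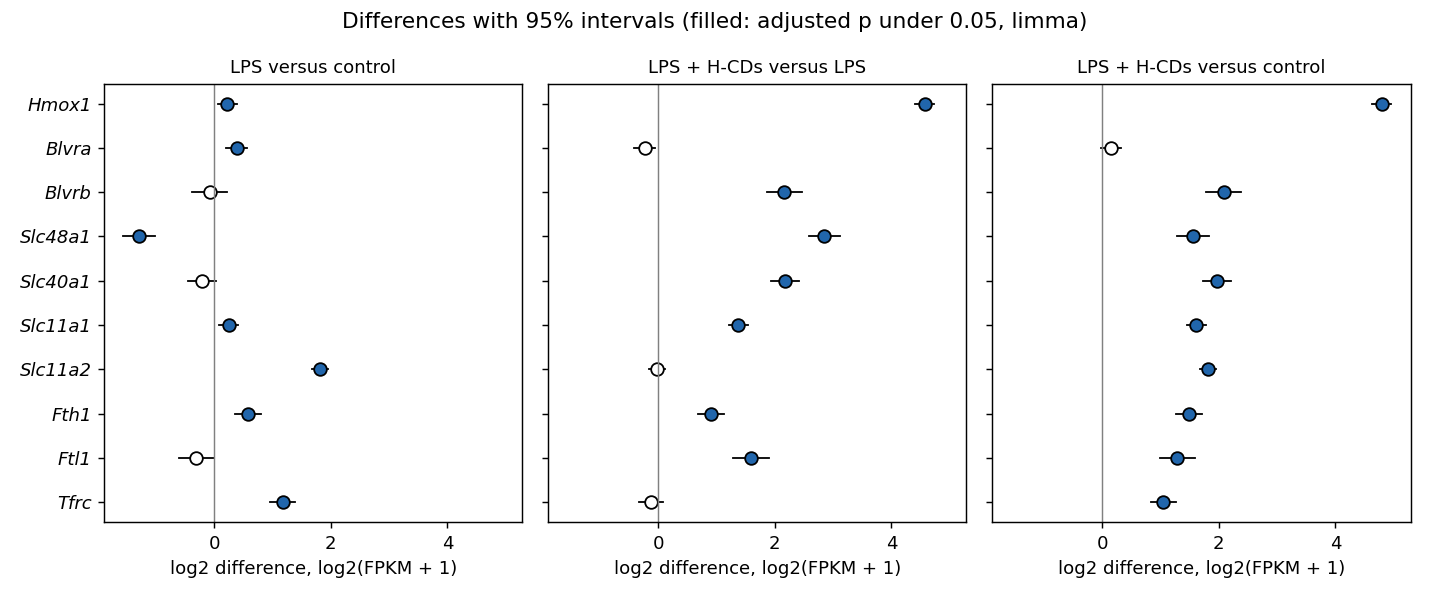
Difference on the log2(FPKM + 1) scale (horizontal axis) for the 10 genes in 3 comparisons, with 95% intervals from the limma fit over 9 libraries; filled points had an adjusted p under 0.05. With H-CDs added to LPS, 7 genes lie to the right of 0, from 0.91 for Fth1 to 4.57 for Hmox1, while Blvra, Slc11a2 and Tfrc are open points near 0.

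Ferritin RNA was abundant in every group. Fth1, the heavy chain, which oxidises iron as it enters the shell, was measured at 3111, 3705 and 3599 FPKM in control, 5074, 5190.3 and 5187 in LPS, and 10240.3, 9664 and 9218 in LPS + H-CDs. Each group lay above the one before it with no overlap. LPS gave 1.48 times control (log2 difference 0.57 ± 0.10, adjusted p = 8.75e-04), and H-CDs gave 1.88 times LPS (0.91 ± 0.10, adjusted p = 4.15e-04) and 2.80 times control (adjusted p = 1.83e-06). By mean FPKM, Fth1 held place 2 of all protein-coding genes in control, 4 in LPS and 1 in LPS + H-CDs. The difference between LPS and control shrank to 0.225 on the TPM scale (adjusted p = 0.0271) and 0.284 per total reads (0.0266). The differences were not called when genes of low level were kept in the fit, with adjusted p of 0.544 for LPS against control, 0.487 for H-CDs against LPS and 0.106 for LPS + H-CDs against control. Their size did not change in that fit (0.573, 0.913 and 1.486), and 17 of 18 alternatives kept each call.

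Ftl1, the light chain, which helps the iron core to form, had 658, 557 and 854 FPKM in control, 546, 549 and 552 in LPS, and 1736, 1589 and 1649 in LPS + H-CDs. Control scattered widely, LPS lay just below it with little scatter, and LPS + H-CDs lay above both. H-CDs gave 3.02 times LPS (log2 difference 1.59 ± 0.13, adjusted p = 1.06e-04) and 2.41 times control (adjusted p = 3.94e-05). LPS against control was -0.31 ± 0.13 (adjusted p = 0.0822), not called. It was called lower in edgeR (adjusted p = 0.0116), in DESeq2 (0.00707), on the TPM scale (0.00130), per total reads (0.00410) and without control replicate 2 (0.0113). Without control replicate 3 the difference was -0.140 (adjusted p = 0.245).

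Ferritin genes have near-identical copies that can share their reads. Ftl1-ps1 was at 18.8 to 30.1 FPKM in control, 16.2 to 18.9 with LPS and 50.2 to 67.1 once H-CDs were added, so it followed Ftl1 at a far lower level. Ftl2-ps reached at most 3.38 FPKM and Fth-ps2 at most 1.61, Ftl1-ps2 had 1 read in all, and Fth-ps3 and the Fthl17 genes were listed at 0. Ftl1 also overlaps Gm10252 on the opposite strand, which held 12 to 47 reads per library, and the microRNA gene Gm22133, which held none. Summing each chain with its copies left its calls the same.

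The chains were also compared within each library. The ratio of Fth1 to Ftl1 in FPKM was 4.73, 6.66 and 4.22 in control, 9.30, 9.45 and 9.40 in LPS, and 5.90, 6.08 and 5.59 in LPS + H-CDs. LPS stood above the rest, and LPS + H-CDs lay within the range of control. No test was made of the ratios.

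RNA for transferrin uptake was higher wherever LPS was given. Tfrc, the receptor for iron-loaded transferrin and the member with 4 matches in its 3′ UTR, was at 60.3, 49.5 and 47.1 FPKM in control, 128, 114 and 113 in LPS, and 107, 112 and 107 in LPS + H-CDs. LPS gave 2.27 times control (log2 difference 1.17 ± 0.09, adjusted p = 5.84e-06). The LPS + H-CDs libraries lay just under those of LPS, with a difference of -0.13 ± 0.09 and an interval from -0.34 to 0.09 (adjusted p = 0.416). They stayed 2.08 times above control (adjusted p = 1.45e-05). The ratio of the importer Tfrc to the exporter Slc40a1 was 324, 175 and 146 in control, 1029, 2332 and 1021 in LPS, and 25.5, 27.9 and 29.5 in LPS + H-CDs. The groups were separate in this ratio, with LPS highest and LPS + H-CDs lowest, and the low ferroportin reads of LPS set its scatter. Between LPS and LPS + H-CDs it mainly restates the ferroportin change. Mean Tfrc with H-CDs was 0.915 times that of LPS, and mean Slc40a1 was 41.5 times.

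**Figure D3:**
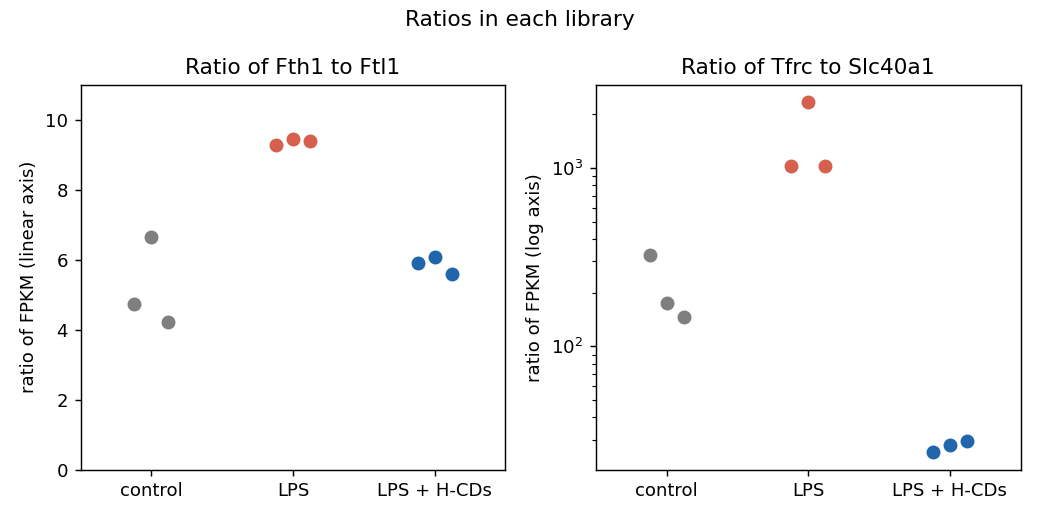
Ratios of FPKM in each of the 9 libraries: Fth1 to Ftl1 (left, linear axis from 0) and Tfrc to Slc40a1 (right, log axis). The heavy to light chain ratio is 9.30 to 9.45 in LPS against 4.22 to 6.66 in control, and the Tfrc to Slc40a1 ratio is 25.5 to 29.5 in LPS + H-CDs against 1021 to 2332 in LPS.

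The authors' deposited table of LPS + H-CDs against LPS gave log2 fold changes of 4.61 for Hmox1, 2.28 for Blvrb, 3.04 for Slc48a1 and 5.39 for Slc40a1. It gave 1.44 for Slc11a1, 0.93 for Fth1 and 1.61 for Ftl1. In the authors' deposited table Blvra was at -0.23 with an adjusted p of 0.0744 and Tfrc at -0.11 with 0.348.

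Other genes of heme and iron handling were taken as a list by role. Of 62 listed genes in 8 roles, 42 were tested; the other 20 were at most at 0.438 FPKM, and 7 of them were listed at 0 in every library. H-CDs against LPS raised 7 and lowered 4 of the 42, with a median of 0.08, where 6.54% of all tested genes were higher and 9.05% lower. LPS against control raised 6 and lowered 21, with a median of -0.22, where the shares of all genes were 28.8 and 26.8%. LPS + H-CDs against control raised 6 and lowered 19, with a median of -0.21, where they were 26.7 and 25.4%. The counts by role given next are to be read against these shares, and roles of few genes say little. This list too was chosen with earlier results of these data known, so its counts are descriptions. On the TPM scale those splits became 4 and 33 for LPS and 4 and 27 for LPS + H-CDs against control, and per total reads 4 and 30, and 4 and 25. Of 26 differences from control named for these genes, 17 changed by over 1.5 times on the TPM scale, 14 of them to values further below control. The counts above include Cp, which reached the test only through LPS, and Slc22a17 and Abcb10, which reached it only through control. Calls of these genes in the direction of that group add nothing to the counts or medians as evidence.

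Heme synthesis had 4 of 9 tested genes higher and 0 lower with H-CDs against LPS, where 6.54% of all tested genes were higher. Alas1, which makes the first and rate-limiting step in cells other than red cell precursors, was at 5.15 ± 0.26 FPKM in control (SD, n = 3), 7.82 ± 0.48 in LPS and 13.9 ± 0.42 in LPS + H-CDs. It rose with H-CDs by 0.76 ± 0.06 on the log2 scale (SE, adjusted p = 1.04e-04), and against control by 1.28. Alad, the next enzyme, was lowered by LPS, from 30.9 ± 2.9 to 15.3 ± 0.63 FPKM (-0.97, adjusted p = 8.17e-06), and was 20.95 ± 1.6 with H-CDs (0.43 against LPS, adjusted p = 0.00801). In LPS, 5 of the 9 were lower and 1 higher than control, where 26.8% of all genes were lower and 28.8% higher. Fech, which inserts the iron, was among the lower (-0.57, adjusted p = 3.63e-05). Against control, LPS + H-CDs had 5 of the 9 lower and 2 higher, where 25.4% of all genes were lower and 26.7% higher. Alad was among the lower there (-0.54, adjusted p = 4.51e-04, limma).

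Heme transport and binding had 2 of 6 tested genes higher with H-CDs than with LPS and 0 lower, where 6.54% of all tested genes were higher. Pgrmc1, a heme-binding membrane protein, rose by 0.48 (adjusted p = 0.00203), and Flvcr1, known as a heme exporter, by 0.55 (adjusted p = 0.00401). Flvcr1 had been lower in LPS than in control (-0.49, adjusted p = 0.00140). Lrp1, the receptor that takes up heme bound to hemopexin, was lower than control in LPS (-1.01, adjusted p = 4.13e-04) and in LPS + H-CDs (-1.46, adjusted p = 4.20e-05).

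Among 4 tested genes of iron uptake and reduction, H-CDs against LPS lowered 1, where 9.05% of all tested genes were lower. That gene was Slc39a14, a zinc transporter that also carries iron (-0.46, adjusted p = 0.00121). LPS had raised it (1.10, adjusted p = 4.29e-07), and it stayed above control with H-CDs (0.64, adjusted p = 2.18e-05). Steap3, the reductase that readies iron for Slc11a2 in the endosome, was lower than control in LPS (-1.68, adjusted p = 2.03e-07) and in LPS + H-CDs (-1.41, adjusted p = 8.40e-07). Pcbp1, an iron chaperone of ferritin, was the 1 of 3 tested storage and delivery genes called, lower in LPS + H-CDs than in control (-0.27, adjusted p = 0.0301). Leaving out control replicate 2 or 3 or LPS + H-CDs replicate 1 or 3 ended that call (adjusted p of 0.0518 to 0.0891), as did fitting only these 2 groups (0.0652) or no filter (0.0758), and without LPS + H-CDs replicate 1 the difference was -0.18.

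Lcn2 and Cp, both secreted, were lower with H-CDs than with LPS alone. Lcn2, lipocalin 2, which binds bacterial siderophores, was at 0.130 ± 0.034 FPKM in control, 19.2 ± 2.6 in LPS and 5.04 ± 0.59 in LPS + H-CDs. Its difference was 4.15 for LPS against control (adjusted p = 2.40e-09) and -1.73 for H-CDs against LPS (adjusted p = 1.82e-05). LPS + H-CDs stayed above control (2.41, adjusted p = 1.18e-07). Cp, ceruloplasmin, the ferroxidase that works with ferroportin, was at 0.124 ± 0.020, 1.62 ± 0.28 and 0.181 ± 0.077 FPKM. It was called higher in LPS (1.21, adjusted p = 3.79e-05) and lower with H-CDs than with LPS (-1.14, adjusted p = 5.13e-04). Cp reached the test only through LPS, so these p-values carry little weight by themselves. On recovered reads, edgeR gave larger differences for these low genes, 7.12 for Lcn2 and 3.66 for Cp in LPS, and -3.14 for Cp with H-CDs. Slc22a17, a lipocalin 2 receptor, was lower than control in LPS (-0.32, adjusted p = 0.0260) and in LPS + H-CDs (-0.32, adjusted p = 0.0258), from 1.31 FPKM. It reached the test only through control, so neither call carries weight. The first call ended without control replicate 1 or LPS replicate 2 or 3 (adjusted p of 0.0705 to 0.0891). The second ended without control replicate 1 or LPS + H-CDs replicate 1 or 3 (0.0511 to 0.0879), or with only these 2 groups in the fit (0.0554).

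The regulators were not called with H-CDs against LPS in limma: 0 of 6 passed (Aco1, Ireb2, Fbxl5, Bach1, Nfe2l2 and Keap1), and 1 had an unadjusted p under 0.05. That gene was Bach1, named after its value was seen, whose protein represses Hmox1 (0.31 ± 0.10, adjusted p = 0.0683). Bach1 was called higher by edgeR (adjusted p = 0.0219) and DESeq2 (adjusted p = 0.0188), each of which called 1 of the 6. Nfe2l2, the gene of NRF2, gave -0.07 ± 0.09 with an interval from -0.26 to 0.13. Aco1, which encodes the iron-regulatory protein IRP1, was lower than control in LPS (-0.49, adjusted p = 2.27e-04) and in LPS + H-CDs (-0.51, adjusted p = 2.02e-04). Ireb2, the gene of the other iron-regulatory protein, IRP2, went the other way and is named for that reason. In limma Ireb2 was higher than control in LPS (0.43, adjusted p = 0.00111) and in LPS + H-CDs (0.28, adjusted p = 0.0116). Its values on other scales are not given here. Keap1, the NRF2 inhibitor, was lower in LPS (-0.48, adjusted p = 3.04e-04) and in LPS + H-CDs (-0.33, adjusted p = 0.00342).

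Of 11 mitochondrial iron and iron-sulfur cluster genes, 8 were lower than control in LPS and 0 higher, where 26.8% of all tested genes were lower. Abcb10, counted among them, reached the test only through control (1.24 FPKM against 0.519 and 0.799), so its call carries no weight. Abcb8, a mitochondrial transporter, gave -0.62 (adjusted p = 6.23e-05) and Iscu, the scaffold of cluster assembly, -0.49 (adjusted p = 0.00137). LPS + H-CDs had 6 lower than control, Abcb10 again included, where 25.4% of all tested genes were lower. Abcb8 was at -0.68 (adjusted p = 3.96e-05) and Slc25a28, a mitochondrial iron importer, at -0.48 (adjusted p = 5.00e-04). Against LPS, H-CDs lowered 1, the importer Slc25a37 (-0.43, adjusted p = 0.0198), and raised 1, the assembly factor Isca1 (0.30, adjusted p = 0.0297). Of all tested genes, 9.05% were lower and 6.54% higher there, so these counts say nothing about the role. The Slc25a37 call ended without LPS replicate 1 (adjusted p = 0.0667) or LPS replicate 2 (0.0742), and the Isca1 call without any LPS library or without LPS + H-CDs replicate 1 or 2 (0.0707 to 0.104). Both calls ended with no filter on low levels (0.0513 and 0.0715).

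**Figure D4:**
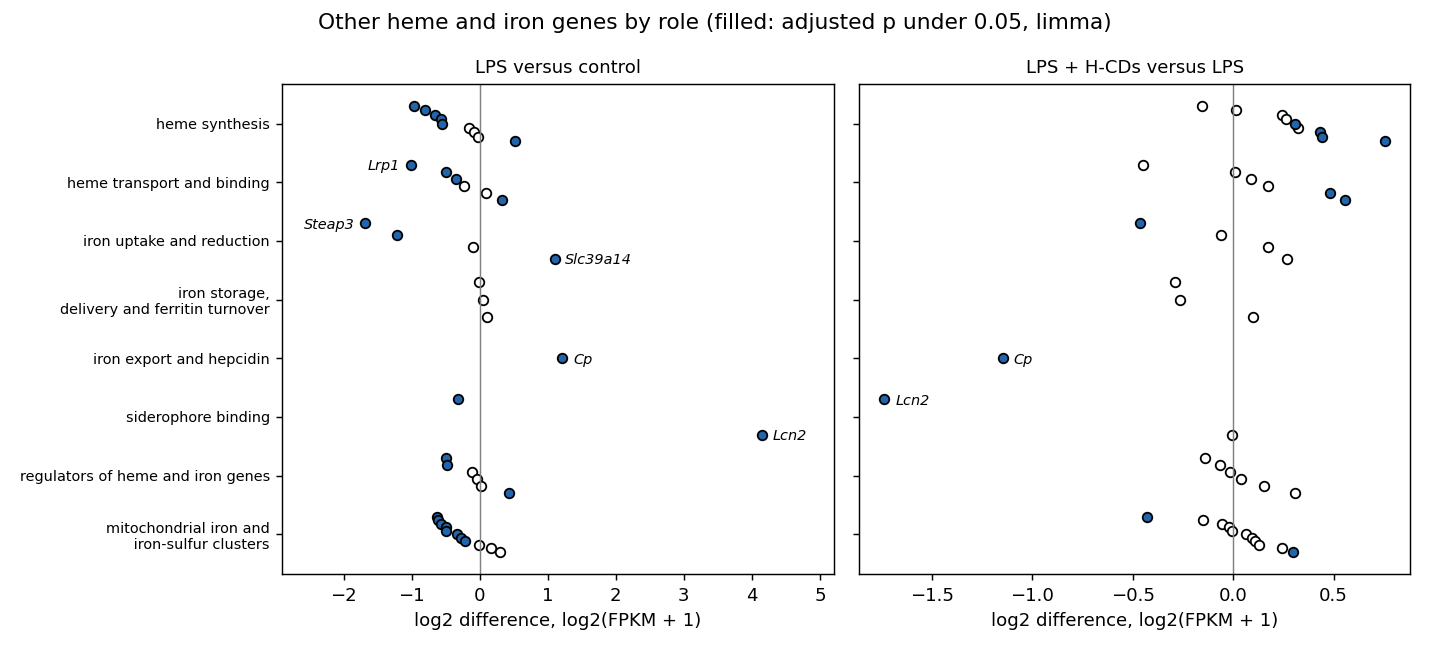
Difference on the log2(FPKM + 1) scale (horizontal axis) of the 42 other heme and iron genes tested, by role, for LPS against control (left) and LPS + H-CDs against LPS (right); filled points had an adjusted p under 0.05. Lcn2 and Cp are above 1 for LPS (4.15 and 1.21) and below -1 with H-CDs (-1.73 and -1.14). Cp reached the test only through LPS, so its filled points carry little weight.

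The genes whose levels were most like those of the members that H-CDs raised at least 2-fold were sought among all genes. Likeness was Pearson's r of log2(FPKM + 1) over the 9 libraries among tested protein-coding genes, and since these fall into 3 groups it mainly reflects the order of the group means. Hmox1 was nearest to Kif3c, a kinesin motor (r = 0.998), Srxn1, sulfiredoxin (0.995), and Prdx1, a peroxiredoxin (0.993). Slc40a1 was nearest to Srxn1 (0.998), Gclm, the modifier subunit of glutathione's first synthetic enzyme (0.996), and Akr1b8, an aldo-keto reductase (0.994). Srxn1 had mean levels of 17.6, 15.4 and 148 FPKM in control, LPS and LPS + H-CDs, and Gclm 10.5, 8.27 and 82.3.

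Blvrb was nearest to Slc40a1 (0.992), Tubb2a, a tubulin (0.991), and Srxn1 (0.990). Slc11a1 was nearest to Hmox1 (0.992), Gpt2, an alanine transaminase (0.992), and Prdx1 (0.991). Ftl1 was nearest to its copy Ftl1-ps1 (0.991), Akr1b8 (0.982) and Gclm (0.976). Slc48a1 stood with other genes: G6pdx, the first enzyme of the pentose phosphate path (0.991), Cyb5a, a cytochrome b5 (0.987), and Golim4, a Golgi protein (0.975). G6pdx had means of 99.8, 78.9 and 148 FPKM, lowest in LPS as Slc48a1 was.

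Promoter windows from RefSeq (GRCm38.p6, 300 bases around a start) were at hand for 6 of the 10 members, in 9 windows: Blvra, Blvrb, Slc11a1, Fth1, Ftl1 and Tfrc. The antioxidant response core TGACNNNGC, read on both strands, was in 1 of the 9, a window of Blvra, and in 12.4% of all windows. The longer motif TGANTCAGC, to which BACH1 and NRF2 are known to bind with small MAF proteins, was in 0 of the 9 and in 1.19% of all windows. At such a share, 9 windows cannot show that these members lack the motif. Sequence outside the 300 bases was not searched. No window was at hand for Hmox1, Slc48a1, Slc40a1 or Slc11a2.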

How the data were processed

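The members and gene lists were chosen with earlier results of these data known. The authors deposited a gene table in FPKM for 9 libraries and a table of LPS + H-CDs against LPS with a scaled signal per library, a log2 fold change and p-values, per the file headers. The build is GRCm38 (mm10) per the submitters' processing notes; the aligner, the counting tool and how values were normalized were not given in the sources used here. Messenger RNA was selected on poly-T beads per the labels' protocols, and strand is not stated, so overlapping genes cannot be told apart. Columns labelled CD were read as H-CDs. No column of per-sample values was left unmapped (0).

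FPKM times gene length gave whole reads for 100% of values, within 0.01, and the signal of the deposited comparison gave the same reads. The 11707 genes that reached 1 FPKM in 3 or more of the 9 libraries were tested with limma 3.58.1 (R 4.3.3, intensity trend, 6 residual degrees of freedom) on log2(FPKM + 1), all groups in 1 fit, 2-sided, with Benjamini-Hochberg adjustment across the tested genes in each of 3 comparisons and a threshold of 0.05. Folds are ratios of mean FPKM. An exact permutation test of 3 against 3 cannot go below 0.1, so adjusted p rests on variance shared across genes. Alternatives were a pseudocount of 0.1, no filter, TPM, total reads, only the 2 groups compared, a replicate block, each library left out, ferritin copies summed, and edgeR 4.0.16 and DESeq2 1.42.0 on recovered reads. The fit was tested on simulated data. Named beyond the members were up to 2 listed genes per role and comparison with the smallest adjusted p under 0.05, and the 3 genes most correlated with each member raised at least 2-fold by H-CDs over LPS. The differences of Ireb2 from control were given in addition to these. Tf was matched as Trf. Iron-responsive elements were searched in GENCODE M21 transcripts.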

Additional observations from a re-analysis of the deposited data

How the results depend on the processing

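The numbers of members called stayed within 1.5 times their main values of 7, 7 and 9 under every alternative run, and 18 of the 30 member differences kept direction and side of the threshold throughout; the other 12 did not. The calls of H-CDs against LPS held for Hmox1, Blvrb, Slc48a1, Slc11a1 and Ftl1 under all alternatives, and for Fth1 under all but the fit with no filter; that of Slc40a1 held too, but it entered most of these fits only through its level with H-CDs. Directions turned for small differences only. LPS against control turned on the TPM scale and per total reads for Hmox1 (-0.120 and -0.0605) and Slc11a1 (-0.0842 and -0.0253), and for Blvrb the range with 1 library left out was -0.185 to 0.0438. Blvra in LPS + H-CDs against control became -0.156 on the TPM scale and -0.0539 per total reads. Slc11a2 with H-CDs against LPS became 0.0230 (TPM), 0.0639 (total reads) and 0.0134 (edgeR), with a range of -0.0335 to 0.00611 when 1 library was left out. TPM moved the median of all genes for LPS against control from 0.03 to -0.30, and for LPS + H-CDs against control from 0.01 to -0.28; per total reads they were -0.22 and -0.16, and the cause was not tested. The all-gene split in LPS + H-CDs against control went from 3120 higher and 2970 lower to 1651 and 5338 (TPM) and 2033 and 4528 (total reads); in LPS against control it was 1904 and 5191 per total reads, and in H-CDs against LPS it went from 766 and 1060 to 875 and 690 (TPM) and 1195 and 690 (total reads). All genes called there fell from 1826 to 1098 without LPS replicate 1, 1022 without LPS replicate 2 and 1185 without LPS + H-CDs replicate 2, where fewer samples were fitted. The Fth1 to Ftl1 ratio in LPS was 9.11 with copies summed, against 9.38.

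Samples with the same replicate number did not deviate together (correlations of -0.12 to 0.20 over 9 pairs, 1 above 0.1). In 2 of these 9 pairs, the first sample correlated better with its own number than with the other numbers of the second group. With the replicate block 7, 7 and 9 members and 6276, 1485 and 5836 genes were called, against 6508, 1826 and 6090, and no member's call changed. Ferroportin in LPS rests on 6 to 15 reads per library, so its level there is the least precise.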
